A study of Glycine max with 4 samples.

Results

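The 6 genes described here are a pair of iron-deficiency transcription factor genes of the bHLH38/39 type, both on chromosome 3 of soybean (Glycine max), and 4 ferritin genes on chromosomes 18, 7, 3 and 1. They were chosen by identifier, from a given list, out of 47973 genes listed in at least 1 of 4 root libraries. The choice was made with earlier results of these data known. Every identifier carries the ending Wm82.a2.v1, which names an assembly of the cultivar Williams 82. It is written out where a gene is first described and left out elsewhere. The names bHLH38/39-type and ferritin come with the list. The tables hold identifiers only, and none of the 47973 matched the reference table, which is built on another assembly, so the names could not be checked against an annotation and neither coordinates nor sequences are given.

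Messenger RNA was sequenced from roots of transgenic plants with GmHAD1-2 suppressed (Ri, the submitters' short name) and of wild-type plants (WT), with 2 biological replicates per genotype. All plants spent 12 days in nutrient solution with KH2PO4, given by the submitters as 250 mM, before the roots were taken. That unit is in doubt, since nutrient solutions usually hold phosphate in the micromolar range. The sources used here do not give the construct and promoter, the number of transgenic lines, plant age at transfer, the number of plants behind a library or the iron supply. Expected counts per library totalled 10077854 to 11070260, and 3 counts equal 0.264 to 0.306 CPM (counts scaled to library size with TMM factors). The Ri replicates differed from each other more than the WT replicates did. The SD of the log2 difference between replicates was 0.61 in Ri and 0.32 in WT, over 20249 genes of at least 8 CPM. Neither the suppression of GmHAD1-2 nor root marker genes could be checked without gene names.

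Soybean, like other plants outside the grasses, takes up iron by reducing it at the root surface and importing it. In Arabidopsis, bHLH38 and bHLH39 are made when iron is short, pair with the factor FIT and switch on the genes for ferric reductase and iron import. Ferritins are hollow protein shells, in plants found mainly in plastids, that hold iron in a safe form, and their transcripts in plants accumulate when iron is in excess. The bHLH genes are therefore grouped here as a class tied to iron shortage and the ferritins as a class tied to iron storage. The libraries hold no measure of iron itself, so transcript levels of these classes are not read as the iron status of the roots. The questions put to the libraries were whether these classes differ between Ri and WT roots, and whether they move in opposite directions across libraries.

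Both bHLH genes were lower in both Ri libraries than in both WT libraries, and 3 of the 4 ferritins were higher in both Ri libraries than in both WT libraries. Of all genes tested, 18.5% lay lower in Ri without overlap and 17.7% lay higher. The bHLH pair together was 3.71-fold lower in mean level in Ri roots, and the 4 ferritins together were 1.35-fold higher. None of the 6 genes passed the test across all genes (quasi-likelihood test of edgeR, with p adjusted after Benjamini and Hochberg under 0.05), where 0.117% of the 34151 genes tested did. All 6 genes passed the filter on low counts, but Glyma.03G130600 did so through its WT libraries alone, since it was under 1 CPM in both Ri libraries. A gene that enters in this way had to differ, so its test values are given as a description and support nothing. The other 5 genes had at least 1 CPM in every library. Before adjustment, edgeR gave a p under 0.05 to 3 of these 5, namely Glyma.03G130400, which was lower (3.86% of all genes tested), and 2 of the 4 ferritins, which were higher (2.4% of all genes tested). Of these 5 genes, 0 were called by DESeq2, where 316 of the 34151 genes tested were. Limma on counts and limma on FPKM called 0 of all genes, so those fits say nothing about the members. Glyma.03G130600 was past the threshold as lower in DESeq2 (0.794% of all genes) and not in limma, where no gene was. In bulk RNA from whole roots, fewer cells of a type and less RNA per cell cannot be told apart.

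The 6 genes fell into 3 pairs that shared sequenced fragments with each other. An expected count is an estimate that divides a fragment among the genes it matches, so it need not be a whole number. The counts of the bHLH genes added up to 29 and 31 in Ri and to 88 and 135 in WT, each whole within 0.005. The ferritins Glyma.18G205800 and Glyma.07G155200 added up to 464 and 623 in Ri and to 410 and 442 in WT. The ferritins Glyma.03G050100 and Glyma.01G124500 added up to 84 and 86 in Ri and to 49 and 32 in WT. Each of these 3 pairs gave a whole sum in all 4 libraries, and 0 of the other 12 combinations of the 6 genes did. Taken singly, 4 of 24 counts were whole, all of them from Glyma.03G050100 and Glyma.01G124500 in WT. For that pair the WT sums are thus whole in any case, and only its Ri libraries bear on shared fragments. The sum of a pair therefore does not depend on how fragments were divided within it, whereas the level of a gene alone does wherever its count is not whole.

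Glyma.03G130600.Wm82.a2.v1, a bHLH38/39-type gene and so of the class that activates iron uptake in Arabidopsis, had 4.34 and 7.15 expected counts in Ri replicates 1 and 2, against 38.07 and 78.51 in WT replicates 1 and 2. In CPM these were 0.443 and 0.629 in Ri and 3.50 and 7.56 in WT. Both Ri values lay not far above the 3-count level, and the lower WT library was 5.56-fold above the higher Ri library. The 2 WT libraries themselves differed 2.16-fold. Its log2 fold change (Ri over WT) was -3.39, SE 0.58 (edgeR, adjusted p = 0.159). Pooled counts of 11 in Ri and 117 in WT gave a 10.6-fold lower level in Ri, with an exact 95% binomial interval of 5.70 to 21.8 that covers counting error only and not the division of fragments. The size depended on the WT libraries: without WT replicate 2 the log2 fold change was -2.72, and without WT replicate 1 it was -3.86. On the log2(FPKM + 1) scale, which understates differences of low genes, it was -1.95. Of all genes tested, 0.184% had a log2 fold change this low or lower, and of the 8905 genes within 2-fold of its mean level 0.258% did. Entry through the WT libraries alone favoured a low value, so these shares describe the gene and do not measure how unusual it is.

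Its partner Glyma.03G130400.Wm82.a2.v1, of the same type, had 24.66 and 23.85 expected counts in Ri replicates 1 and 2, against 49.93 and 56.49 in WT replicates 1 and 2. In CPM the gene was at 2.52 and 2.10 in Ri and at 4.59 and 5.44 in WT. The genotypes did not overlap, and the replicates of each lay within 1.20-fold of each other. The mean was 2.31 CPM ± 0.295 in Ri and 5.01 CPM ± 0.600 in WT (SD, n = 2 each). Its log2 fold change (Ri over WT) was -1.10, SE 0.34 (edgeR, adjusted p = 0.612), and 2.37% of all genes tested lay at or below it. Of the 9504 genes within 2-fold of its mean level, 3.08% did.

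For the bHLH pair as 1 feature the values were 2.96 and 2.73 CPM in Ri and 8.09 and 13.0 CPM in WT. The lower WT library was 2.73-fold above the higher Ri library, while the WT libraries differed 1.61-fold and the Ri libraries 1.08-fold. The log2 fold change (Ri over WT) was -1.89, SE 0.33 (edgeR on a table with each pair summed, adjusted p = 0.184, unadjusted p = 0.00114 in the fit across 34148 features). Of all genes tested, 0.846% lay at or below this value. Of the pooled counts of the pair, Glyma.03G130600 supplied 117 of 223 in WT and 11 of 60 in Ri. Glyma.03G130400 alone had a log2 fold change of -1.10 and was called neither by edgeR nor by DESeq2. The p-values of the pair, and the 0.846% of genes at or below it, thus rest in part on a gene whose own test values support nothing. They serve as description only. DESeq2 placed the summed pair past the threshold, with an adjusted p of 0.0127. Leaving out a Ri library also did so, with edgeR adjusted p of 0.000484 without replicate 1 and 0.0126 without replicate 2, settings in which 5.65% and 4.57% of all genes were called. Without WT replicate 1 the log2 fold change was -2.19 (edgeR adjusted p = 0.693), and without WT replicate 2 it was -1.49 and likewise short of the threshold.

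**Figure D1:**
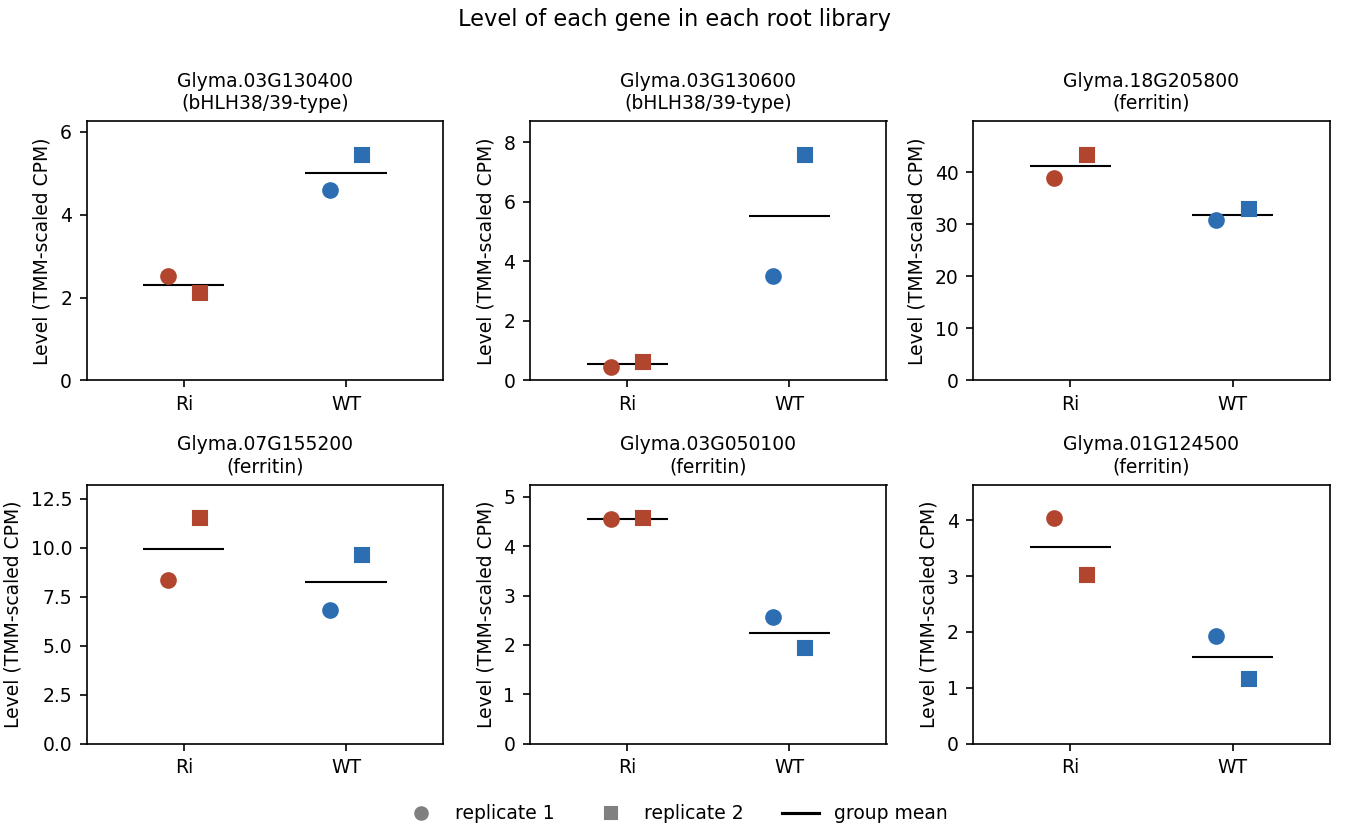
Level of each of the 6 genes in TMM-scaled CPM (y axis, starting at 0) in the 2 Ri and the 2 WT libraries, with a circle for replicate 1, a square for replicate 2 and a line for the group mean. Both bHLH genes lie lower in Ri, with Glyma.03G130600 at 0.443 and 0.629 CPM there, and all ferritins but Glyma.07G155200 lie higher in Ri without overlap.

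The division of fragments within the bHLH pair restates the fold changes of its genes as shares and is not a further result. In Ri it rests on 4.34 and 7.15 expected counts of Glyma.03G130600. Glyma.03G130600 took 15.0% and 23.1% of the pair's counts in Ri replicates 1 and 2, with exact 95% binomial intervals of 3.89 to 31.7% and 9.59 to 41.1%. In WT replicates 1 and 2 it took 43.3% and 58.2%, with intervals of 32.7 to 54.2% and 49.7 to 66.9%. Both Ri shares lay below both WT shares. The interval of Ri replicate 1 did not reach that of either WT library, and that of Ri replicate 2 overlapped with WT replicate 1. No such shift stood out in the ferritin pairs. Glyma.07G155200 took 17.6% and 21.0% of its pair's counts in Ri and 18.1% and 22.7% in WT, and Glyma.01G124500 took 47.0% and 39.8% in Ri and 42.9% and 37.5% in WT. These shares rest on the authors' estimates of where shared fragments belong, an error that the intervals leave out.

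**Figure D2:**
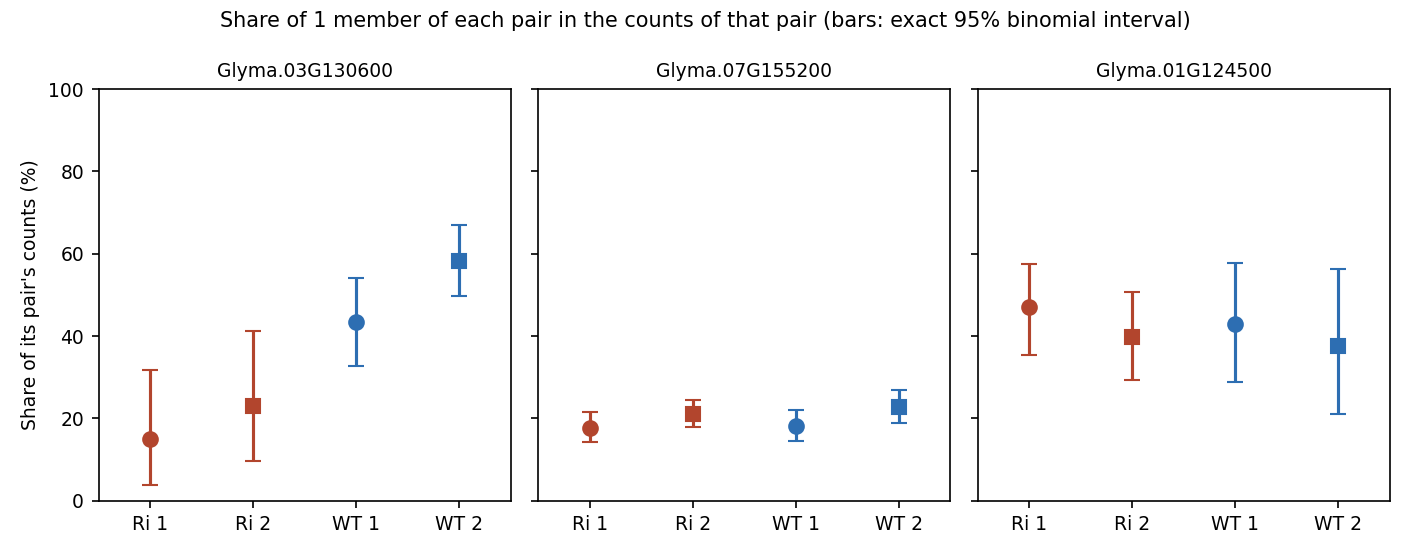
Share of 1 gene in the summed expected counts of its pair (y axis, percent), in each Ri and WT library, with exact 95% binomial intervals for counting error. Glyma.03G130600 holds 15.0% and 23.1% in Ri against 43.3% and 58.2% in WT, while the shares of Glyma.07G155200 and Glyma.01G124500 overlap between the genotypes.

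Glyma.18G205800.Wm82.a2.v1 was the most abundant ferritin in every library, and levels between genes are given here in FPKM, which is scaled by gene length. The gene was at 32.6 and 39.6 FPKM in Ri replicates 1 and 2, against 28.1 and 28.2 FPKM in WT replicates 1 and 2. This placed it above 89.8 to 92.9% of the genes listed in a library. In CPM it was at 39 and 43.3 in Ri and at 30.8 and 32.9 in WT, with 1.19-fold between the nearest libraries of the genotypes. The Ri libraries differed 1.11-fold from each other and the WT libraries 1.07-fold. Its log2 fold change (Ri over WT) was 0.37, SE 0.17 (edgeR, adjusted p = 0.825), a value that 15.2% of all genes tested reached or passed. Of the 9675 genes within 2-fold of its mean level, 6.75% did.

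Its partner Glyma.07G155200.Wm82.a2.v1 was the only member whose genotypes overlapped. Its level was 8.35 and 11.5 CPM in Ri replicates 1 and 2, and 6.84 and 9.66 CPM in WT replicates 1 and 2. Ri replicate 1 thus lay below WT replicate 2, and in each genotype replicate 2 was the higher. The log2 fold change (Ri over WT) was 0.28, SE 0.29 (edgeR, adjusted p = 0.918). Summed, this more abundant ferritin pair was at 47.3 and 54.8 CPM in Ri and at 37.7 and 42.5 CPM in WT. Its log2 fold change (Ri over WT) was 0.35, SE 0.18 (edgeR on summed pairs, adjusted p = 0.852). With 1087 pooled counts in Ri and 852 in WT, the ratio of Ri to WT was 1.28, with an exact 95% binomial interval of 1.17 to 1.40 for counting error alone.

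The less abundant ferritin pair showed the larger relative difference. Glyma.03G050100.Wm82.a2.v1 was at 4.54 and 4.56 CPM in Ri replicates 1 and 2, and at 2.57 and 1.93 CPM in WT replicates 1 and 2. The Ri libraries were nearly equal and both lay above WT, by 1.76-fold at the nearest. The log2 fold change (Ri over WT) was 1.02, SE 0.35 (edgeR, adjusted p = 0.701), and 2.45% of all genes tested reached or passed it. Of the 9221 genes within 2-fold of its mean level, 4.12% did. Glyma.01G124500.Wm82.a2.v1 was at 4.03 and 3.01 CPM in Ri replicates 1 and 2, and at 1.93 and 1.16 CPM in WT replicates 1 and 2. Again the genotypes did not overlap, with 1.56-fold between the nearest libraries, and in each genotype replicate 1 was the higher. The log2 fold change (Ri over WT) was 1.16, SE 0.44 (edgeR, adjusted p = 0.753).

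As 1 feature, this pair was at 8.57 and 7.57 CPM in Ri and at 4.50 and 3.08 CPM in WT. The log2 fold change (Ri over WT) was 1.08, SE 0.31 (edgeR on summed pairs, adjusted p = 0.548, unadjusted p = 0.0115 in the fit across 34148 features). Of all genes tested, 2.20% lay at or above it. Pooled counts of 170 in Ri and 81 in WT gave a ratio of 2.11, with an exact 95% binomial interval of 1.61 to 2.78. That interval does not reach the 1.17 to 1.40 of the more abundant pair, but both cover counting error only, and the difference between the pairs was not tested over replicates.

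**Figure D3:**
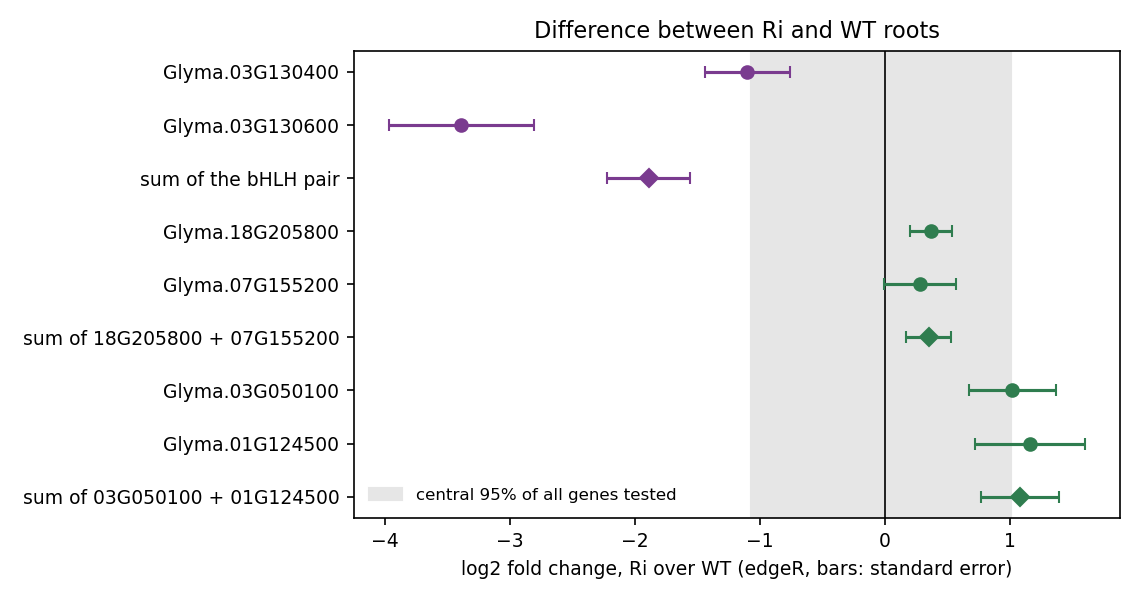
Log2 fold change of Ri over WT (x axis) with its standard error from edgeR, for each gene (circles) and for each summed pair (diamonds), with the grey band holding the central 95% of all genes tested, from -1.07 to 1.01. The bHLH pair lies left of the band at -1.89, the less abundant ferritin pair just right of it at 1.08, and the more abundant pair inside it at 0.35. The band pools genes of every level. Among genes within 2-fold of its mean level, 0.748% lay at or below the bHLH pair. For the less abundant ferritin pair 2.16% of such genes lay at or above it, and for the more abundant pair 7.11%.

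Read against the background, 4 of the 5 genes of at least 1 CPM in every library had values that did not overlap between the genotypes, where 36.2% of all genes tested did. Glyma.03G130400 lay lower in Ri without overlap (18.5% of all genes tested) and 3 of the 4 ferritins lay higher without overlap (17.7% of all genes tested). The genes of a pair share fragments, so these are not 4 separate observations. The members were also chosen with earlier results of these data known, so the shares over all genes are set beside them as description only. The median log2 fold change over the 4 ferritins was 0.69, beside 0.02 over all genes tested. With 2 libraries against 2, a two-sided exact permutation test cannot go below p = 0.333, so no single gene can pass such a test here.

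The deposited gene lengths held a further difference for Glyma.03G050100, which is listed with 2 transcripts. The length the authors used for it was 1267.89 and 1221.50 bases in Ri replicates 1 and 2, and 1164.00 bases in both WT libraries. Glyma.18G205800, also with 2 transcripts, had lengths of 1172.40 and 1134.24 bases in Ri and 1126.35 and 1144.86 bases in WT, which overlapped between the genotypes. The other 4 genes have 1 transcript and the same length in every library. A longer length lowers FPKM at the same count, so FPKM of Glyma.03G050100 averaged 3.68 ± 0.255 in Ri and 1.95 ± 0.460 in WT (SD, n = 2 each), a smaller ratio than its counts gave. At 20 to 51.78 expected counts per library, the use of its transcripts was not tested.

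Per length, the order of the 6 genes differed between the genotypes in the lower ranks. In both, Glyma.18G205800 came first and Glyma.07G155200 second by mean FPKM, at 36.1 ± 4.93 and 9.22 ± 2.41 in Ri and at 28.1 ± 0.0707 and 7.58 ± 1.61 in WT (SD, n = 2 each). In Ri the less abundant ferritins followed, with Glyma.03G050100 at 3.50 and 3.86 FPKM and Glyma.01G124500 at 3.34 and 2.64 FPKM. Below them came Glyma.03G130400 at 3.11 and 2.74 FPKM, which overlapped with Glyma.01G124500, and then Glyma.03G130600 at 0.390 and 0.590 FPKM. In WT both bHLH genes stood above the less abundant ferritins. Glyma.03G130400 was at 5.92 and 6.72 FPKM and Glyma.03G130600 at 3.26 and 6.74 FPKM there. These overlapped with each other and with Glyma.07G155200, at 6.44 and 8.71 FPKM. Glyma.03G050100 at 2.27 and 1.62 FPKM and Glyma.01G124500 at 1.67 and 0.960 FPKM also overlapped with each other. The 2 less abundant ferritins made up 14.6% and 11.4% of the ferritin FPKM in Ri and 10.2% and 6.53% in WT. Ferritin FPKM summed over the 4 genes was 13.4 and 17.1 times the bHLH sum in Ri, and 4.19 and 2.93 times in WT.

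Whether the 2 classes run opposite to each other can be read from the 6 possible pairs of libraries. The bHLH sum and the ferritin sum differed in opposite directions in 5 of 6 pairs. All 4 pairs that set a Ri against a WT library were opposite. Within a genotype 1 of 2 was. The Ri replicates were opposite, with replicate 2 lower in the bHLH sum (2.73 against 2.96 CPM in replicate 1) and higher in the ferritin sum (62.4 against 55.9 CPM). These Ri bHLH sums rest on 31 and 29 counts and differ 1.08-fold. Their order is therefore not firm, nor are the counts of opposite pairs that include it. The WT replicates moved alike, with replicate 2 higher in the bHLH sum (13.0 against 8.09 CPM) and in the ferritin sum (45.6 against 42.2 CPM). Taking each bHLH gene with each ferritin, 30 of 32 combinations between genotypes and 8 of 16 within a genotype were opposite. By order alone, the less abundant ferritin pair differed from the more abundant one within each genotype, though in Ri this rests on the same small bHLH difference. In Ri it was lower in replicate 2 together with the bHLH sum, and in WT it was lower in replicate 2, opposite to the bHLH sum. The opposite order thus lay between the genotypes. The 4 such pairs reuse the same libraries and amount to 1 comparison, and 4 libraries are too few for a correlation.

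**Figure D4:**
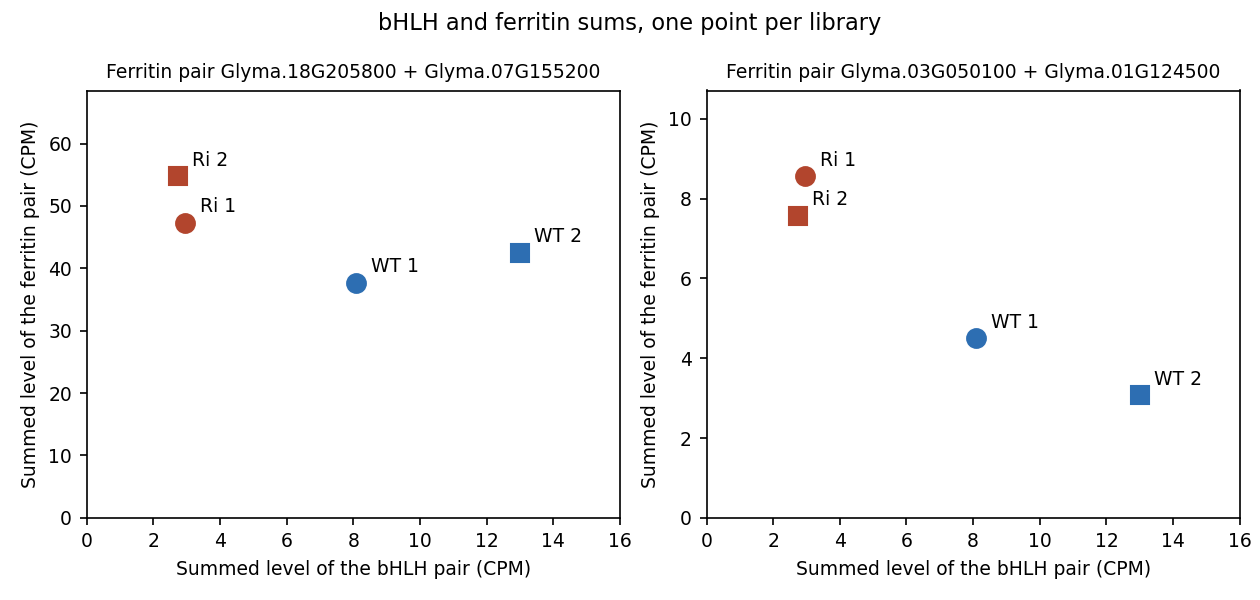
Summed level of the bHLH pair (x axis, CPM) against that of each ferritin pair (y axis, CPM), 1 point per library, with circles for replicate 1 and squares for replicate 2. The Ri libraries lie at the upper left (bHLH sums of 2.96 and 2.73 CPM) and the WT libraries at the lower right (8.09 and 13.0 CPM), while replicates of 1 genotype show no shared direction.

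The genes whose identifiers surround the bHLH pair on chromosome 3 did not share its pattern. Glyma.03G130300, which precedes the pair, was at 11.2 and 7.83 CPM in Ri and at 11.8 and 9.14 CPM in WT, with a log2 fold change of -0.14, SE 0.27 (edgeR, adjusted p = 0.959). Glyma.03G130500, whose number lies between the bHLH genes, had 7 and 7 counts in Ri and 6 and 9 in WT, too few to pass the filter. Glyma.03G130700, which follows, was at 2.54 and 10.5 CPM in Ri and at 2.54 and 1.54 CPM in WT, so that Ri replicate 2 alone was high (edgeR, adjusted p = 0.803). In all 3 genes the values of Ri and WT overlapped.

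Among 20247 other genes of at least 8 CPM, the profile closest to that of the bHLH sum over the 4 libraries was that of Glyma.18G086900. It was at 7.54 and 7.30 CPM in Ri and at 20.7 and 27.4 CPM in WT. The root mean square difference of the centred log2 levels was 0.131, and 2 genes in all lay within 0.2 of the bHLH sum. For the ferritin sum the closest was Glyma.02G018500, at 13.8 and 15.7 CPM in Ri and at 10.4 and 11.6 CPM in WT, with a difference of 0.017. Here 3709 genes lay within 0.2. Among genes of that abundance few had a profile like that of the bHLH sum, while one like that of the ferritin sum was common. A fixed distance is met more easily by a small difference, as in the ferritin sum, than by a large one. The bHLH sum itself was at 2.96 and 2.73 CPM in Ri, under the 8 CPM asked of the other genes. The counts therefore do not compare how unusual the classes are. The files name neither gene.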

How the data were processed

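The authors deposited 1 table per root library with, per the file headers, the length, expected count and FPKM of each gene. Expected counts deposited by the authors are estimated fragments, not normalized. The deposited FPKM values are scaled by length and depth. The submitters' processing notes name Bowtie2, HISAT and RSEM, without roles or versions, and whether strand was used is not given. Genes missing from a table were taken as 0. The submitters call the libraries biological replicates without saying what was separate, so p-values measure only the spread between these libraries, which may be technical.

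Expected counts were rounded and tested with edgeR 4.0.16 (R 4.3.3): TMM scaling, default filter (34151 genes kept), robust quasi-likelihood F-test, genotype as the only term, Benjamini-Hochberg adjustment over all genes. The standard error (SE) of a log2 fold change is its size over the square root of F. CPM values use unrounded counts and TMM-scaled totals. Alternatives used DESeq2 1.42.0 and limma 3.58.1. The fits were tested on simulated data. Summing pairs of genes, and a crossed block, were chosen after the data were seen. The members and lists were chosen with earlier results of these data known. All 6 members are named, with their neighbours by identifier and the gene of most similar profile per class. A list of other iron genes by product name, and lists of photosynthetic and nodule markers, could not be applied, since 0 of 47973 identifiers matched the reference table (Glycine_max_v4.0). Intervals and floors cover counting error only.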

Additional observations from a re-analysis of the deposited data

How the results depend on the processing

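No fold change of the 6 genes turned sign in 89 values under alternatives, and 4 of these, all of Glyma.03G130600, passed the threshold. The number of the 6 genes called was 0 in edgeR with TMM scaling and the default filter, 1 without a filter (log2 fold change -3.40, adjusted p = 0.0467, with 0.313% of all genes called lower) and 1 in DESeq2 (-3.42, adjusted p = 0.00159). The other fits in which Glyma.03G130600 passed were those without Ri replicate 1 (-3.14) and without Ri replicate 2 (-3.73). In each fit with 1 library left out, the lone library is assumed to vary like the others, so only effect sizes are read. Over all 4 such fits the log2 fold change of Glyma.03G130600 ran from -3.86 (without WT replicate 1) to -2.72 (without WT replicate 2). The stricter filter (1 CPM in 3 libraries) dropped this gene, which was under 1 CPM in both Ri libraries. Limma gave it -1.95 on log2(FPKM + 1) and -3.04 on log2(FPKM + 0.1). The cause of moves between fits was not tested for this gene. Its adjusted p ran from 0.00159 to 0.418 over alternatives with all libraries. The log2 ratio of mean bHLH sums, -1.89, ran from -2.19 to -1.51 with 1 library left out (-1.51 without WT replicate 2), and that of ferritin sums, 0.43, from 0.35 to 0.51. Glyma.07G155200 dropped to 0.02 without Ri replicate 2 and stood at 0.56 without WT replicate 2. With the replicate number as a block in edgeR 0 members were called, where 107 of 34151 genes were, and Glyma.03G130600 had an adjusted p of 0.0594. The samples share only a number, with a correlation across genes of -0.24 between the replicate differences of Ri and WT. A crossed replicate block, added after that was seen, called 0 members and 68 of 34151 genes. In edgeR on summed pairs 0 pairs were called, where 40 of 34148 features were. Over all genes, edgeR called 40, and alternatives with all libraries called between 0 and 316 (DESeq2). Depth limits Glyma.03G130600 in Ri, at 4.34 and 7.15 counts.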
